A study of Mus musculus with 7 samples.

Results

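The genes of inhibitory transmission by GABA and glycine were followed in RNA-seq libraries of the dorsal midbrain of newborn mice. The group was a list of 32 genes, drawn up by function from genes that make, break down, transport, sense or anchor these transmitters, and it was 32 of the 52636 genes counted. The genes were found by matching the Ensembl identifiers of the count tables to GENCODE mouse symbols. All 32 were found, and 30 of them had enough counts to be tested.

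The study asked how loss of the POU-domain transcription factor *Brn3b* (*Pou4f2*) changes RNA in the dorsal midbrain, the region that holds the superior and inferior colliculi. The 3 control mice (A2, A4 and A6) carried *Brn3b* flox/+ and En1-Cre. The 4 cKO mice (B1, B7, B8 and B9) carried *Brn3b* flox/- and En1-Cre. All 7 mice thus shared 1 floxed allele and the Cre, which is driven from the *En1* locus in the midbrain and hindbrain, and a recombined floxed allele expresses alkaline phosphatase in place of *Brn3b*. The cKO mice also carried a null allele in every cell, which the controls lacked. Mice A2, A6, B1 and B8 were taken at postnatal day 4 (P4), A4 at P3, and B7 and B9 at P2. P2 mice were present among the cKO only, so age and genotype were partly confounded. Sex was unbalanced too, judged by *Xist*, an RNA made in female cells. A2 held 693 CPM of *Xist*, while every other library held between 1.53 and 2.61 CPM. A2 was thus the only mouse with a female level, and all cKO mice had a male level. Sex was not a term in any fit, and its part in the results below was not tested. Each library was the polyadenylated RNA of 1 mouse.

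GABA and glycine are the fast inhibitory transmitters of the brain. GABA is made from glutamate by the glutamate decarboxylases GAD1 and GAD2, packed into vesicles by the transporter VGAT (*Slc32a1*), and sensed by GABA-A receptors, which are chloride channels of 5 subunits, and by G-protein-coupled GABA-B receptors. Glycine uses the same vesicular transporter and its own chloride channels. The cotransporters NKCC1 (*Slc12a2*) and KCC2 (*Slc12a5*) carry chloride into and out of neurons, and the balance of the pair changes as the newborn brain matures. The superior colliculus is rich in GABAergic neurons.

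Between 23588248 and 87572085 reads were counted on genes per library. *Pou4f2* was at 45.8 to 47.4 CPM (counts scaled to the library total) in the controls and 9.65 to 11.6 CPM in the cKO mice, so every library matched its label. The mouse B8 nevertheless stood apart from the other cKO mice. On the first principal component of log2 CPM, which held 60.1% of the variance, B8 was at -42.2, between the controls at -33.3 to -81.2, while B1, B7 and B9 were at 49.4 to 78.7. The summed level of 6 astrocyte genes was 788 to 850 CPM in the controls, 853 CPM in B8 and 1060 to 1139 CPM in B1, B7 and B9. Of these 6 genes, 4 were higher in cKO mice and 2 were lower (*Gfap* and *Aldh1l1*). Of the 8 pan-neuronal genes 6 were lower in cKO mice, although their summed ranges overlapped (7119 to 8080 CPM in controls and 6567 to 7345 CPM in cKO mice). The 2 higher were *Map2*, with the largest log2 fold change of the 8 (0.81), and *Syt1* (0.25). In bulk RNA, fewer cells of a type and less RNA per cell cannot be told apart. The part of these shifts in the results below was not tested.

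None of the 30 tested genes passed the edgeR quasi-likelihood test at a Benjamini-Hochberg adjusted p of 0.05, where 0.00458% of all 21817 genes did, the 1 gene being *Pou4f2* itself. At an unadjusted p of 0.05, 5 of the 30 passed (*Gad2*, *Gabrb2*, *Gabrg3*, *Slc12a2* and *Glra1*), against 30.4% of all genes. DESeq2 called 3 of the 30, all higher in cKO mice (*Gabrb2*, *Gad2* and *Slc12a2*), where it called 10.4% of all genes with an adjusted p. Without B8, edgeR called 13 of the 30, of which 11 were higher and 2 lower, where it called 46.7% of all genes. B8 had the *Pou4f2* level of a cKO mouse and was singled out because it lay with the controls. Setting it aside therefore pulls the groups apart by that choice. Of the cKO mice then left, only B1 was older than P2. Calls and p-values without B8 thus describe the other mice and are no separate test of genotype. The shares called by DESeq2 and without B8 were near those of the genome at large, and the share at an unadjusted p of 0.05 was below it. Values called corrected below come from a fit that took out each library's dependence on GC content and exon length.

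The groups separated fully for 2 of the tested genes. *Gad2* was above every control in all 4 cKO mice, as were 6.03% of all genes, and *Glra1* was below every control, as were 8.01% of all genes. With B8 set aside, B1, B7 and B9 were above every control for 13 of the 30 genes (28.2% of all genes) and below for 2 (28.0% of all genes). B8 lay within the control range for 16 of the 30 and was nearer to the control mean than to the mean of the other cKO mice for 25 of them, that is 83.3%, against 80.3% of all genes. In direction, 24 of the 30 log2 fold changes were above 0 and 6 were below, with a median of 0.24, while the median of all genes was 0.00 with 50.2% above 0. In the corrected fit this direction was lost, with 15 above 0 and 15 below and a median of -0.0070. Of all genes in that fit 45.7% were above 0, with a median of -0.044.

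**Figure D1:**
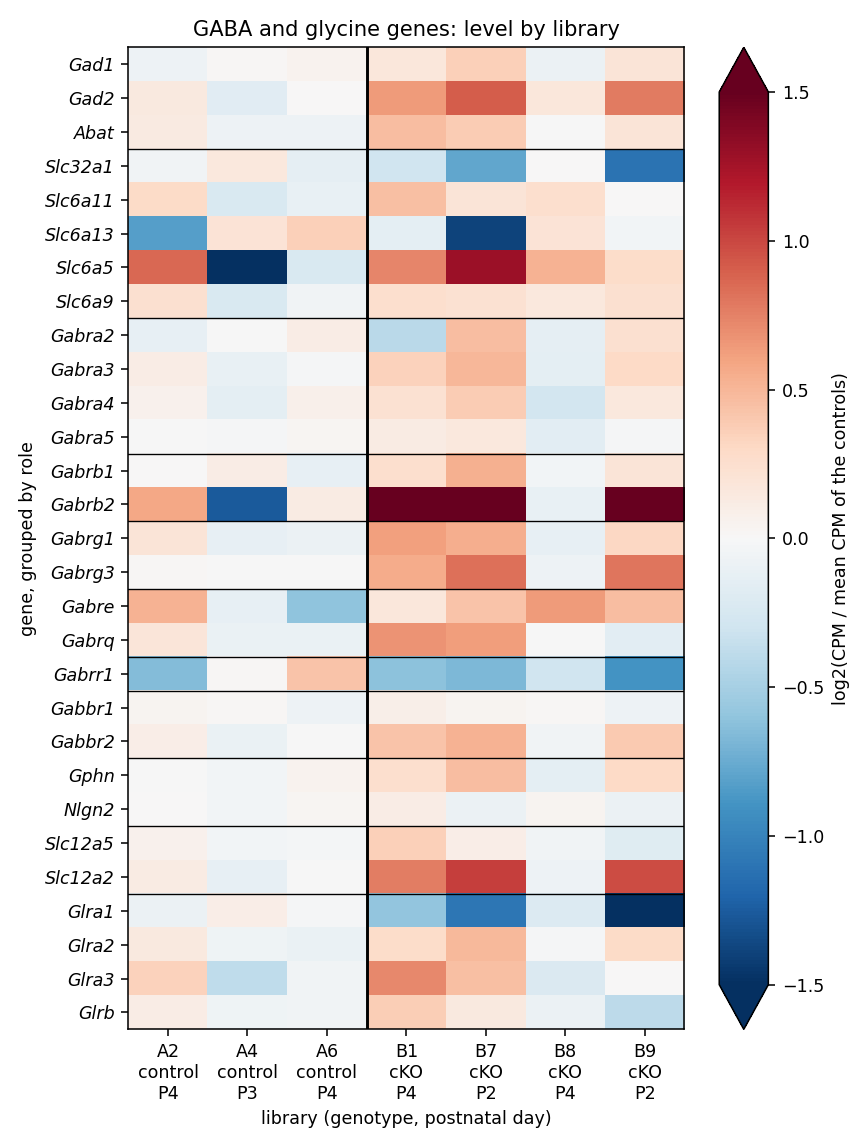
Level of the 29 tested genes that average 1 CPM or more, in each of the 7 libraries (columns, with genotype and postnatal day), as the log2 ratio to the mean CPM of the 3 controls. Red is above the controls and blue below, values past 1.5 share the last colour, and horizontal lines separate the roles. B8 resembles the controls in most rows, and *Gabrb2* is the strongest red row in B1, B7 and B9.

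*Gabrb2*, which encodes the beta2 subunit of the GABA-A receptor, had the largest difference. It lies on mouse chromosome 11 from 42419757 to 42629028, and 3 start sites are listed for it in RefSeq. The 250 bases before the most upstream of these starts are shown because no other gene of the group had as large a difference. They lie at chr11:42420190-42420439 on the plus strand of GRCm38.p6, inside the gene but in no annotated exon, and the capitals mark the letters TATAAA.
Gabrb2: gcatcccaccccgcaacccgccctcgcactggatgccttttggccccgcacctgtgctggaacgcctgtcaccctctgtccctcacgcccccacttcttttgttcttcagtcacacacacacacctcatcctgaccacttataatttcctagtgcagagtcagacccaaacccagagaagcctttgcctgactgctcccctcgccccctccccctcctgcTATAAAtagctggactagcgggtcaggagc
The match begins 30 bases before the start. TATAAA was searched on both strands and was present in 12.4% of the 32851 RefSeq windows of the same length, and in 4 of the 28 genes of the group that have one. ATTAAT, the letters at the core of POU4-type sites and their own reverse complement, was absent from the *Gabrb2* window and present in 2 of the 28, against 4.39% of all windows. A match describes letters only.

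Controls A2, A4 and A6 held 20.7, 5.82 and 15.2 CPM of *Gabrb2*. Among the cKO mice, B1, B7, B8 and B9 held 92.5, 134, 12.9 and 111 CPM. B1, B7 and B9 were far above every control, and B8 was inside the control range, so the groups overlapped. The means were 13.9 ± 7.52 CPM (SD, n = 3) and 87.6 ± 52.6 CPM (SD, n = 4), 6.31-fold apart. The edgeR log2 fold change of *Gabrb2* was 2.67 ± 0.71 (SE, adjusted p = 0.138), and DESeq2 gave an adjusted p of 0.032. Without B8, the cKO mouse inside the control range, the edgeR value was 3.03 ± 0.34 (SE, adjusted p = 7.65e-05). Among P4 mice alone, where the cKO pair were B1 and B8, it was 1.55 (adjusted p = 0.989).

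Its partner *Gabrb1* encodes the beta1 subunit. Its level was 101 to 119 CPM in the controls and 107 to 159 CPM in cKO mice, with B8 again within the control range, and its log2 fold change was 0.25 (edgeR adjusted p = 0.281). Without B8 *Gabrb1* was called higher (0.33, edgeR adjusted p = 0.0378), but in the corrected fit of the same 6 mice it was called lower (-0.53, edgeR adjusted p = 0.00648), and on 7 mice the corrected value was -0.40. Among these beta subunits, and on a scale of CPM per kb of exon, *Gabrb2* made up 29.0, 9.62 and 24.5% in A2, A4 and A6. Its shares in B1, B7, B8 and B9 were 60.5, 64.7, 20.8 and 65.8%. Thus *Gabrb1* was the more abundant of the pair in every control and in B8, and *Gabrb2* was the more abundant in B1, B7 and B9. The shares of *Gabrb2* averaged 21.0 ± 10.1% (SD, n = 3) and 52.9 ± 21.6% (SD, n = 4). Other beta subunits were not included here.

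**Figure D2:**
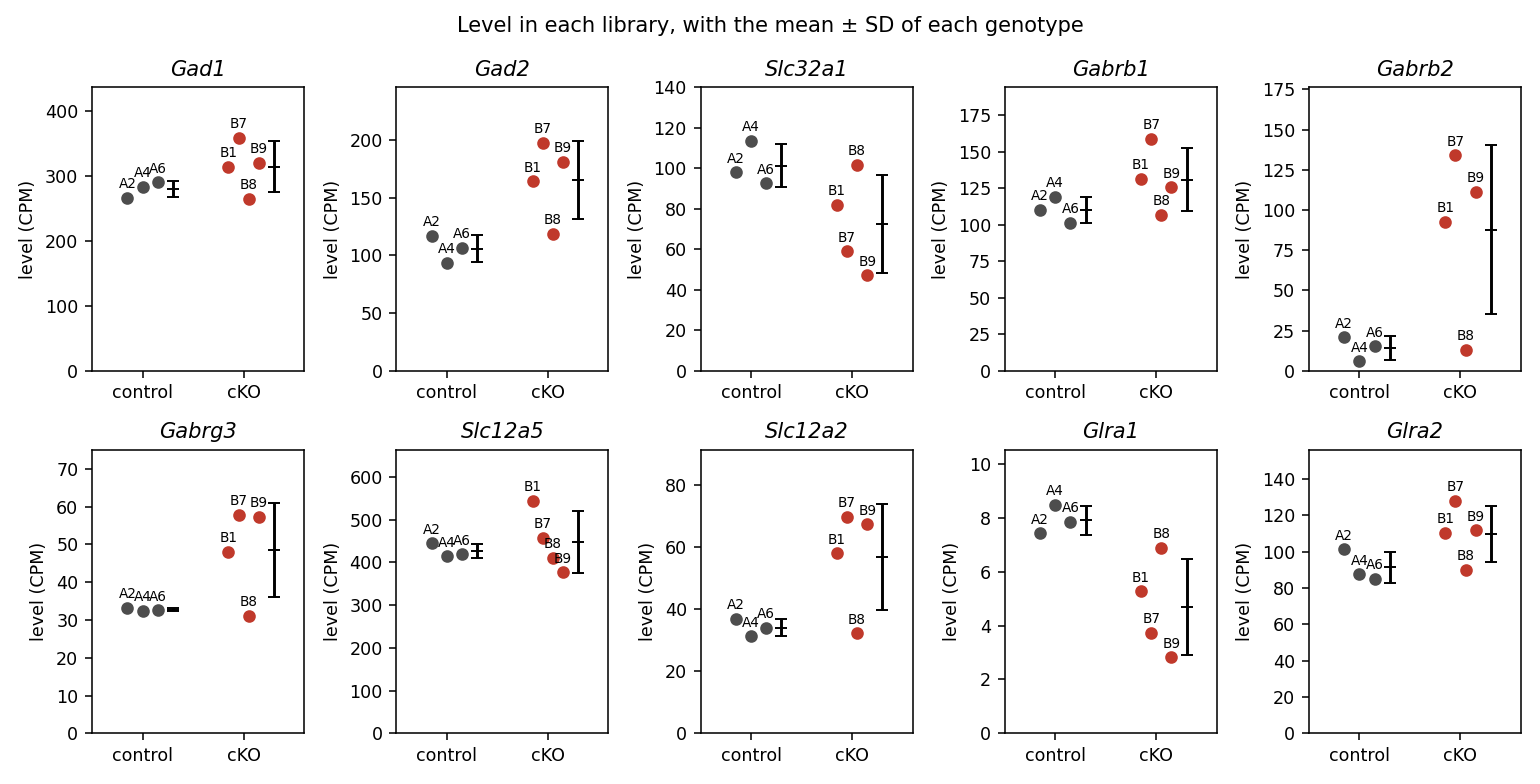
CPM of 10 genes in each library (grey, the 3 controls; red, the 4 cKO mice), with the mean and SD beside each group and axes from 0. For *Gabrb2*, *Gabrg3* and *Slc12a2* the points of B1, B7 and B9 sit above the controls while B8 sits among or just below them.

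The synthetic enzymes were abundant. *Gad1*, on chromosome 2 from 70553072 to 70602014, encodes the decarboxylase that is spread through the neuron. It was at 266, 283 and 289.8 CPM in A2, A4 and A6, and at 314, 358, 264 and 319 CPM in B1, B7, B8 and B9. B8 was the lowest of all 7 libraries and the other cKO mice were the highest. The means were 279.5 ± 12.2 CPM (SD, n = 3) and 314 ± 38.8 CPM (SD, n = 4), and the log2 fold change of 0.17 ± 0.13 (SE) did not pass the edgeR test (adjusted p = 0.389). The corrected value was -0.26, and without B8 -0.30, where *Gad1* was called lower (edgeR adjusted p = 0.0222).

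*Gad2*, on the same chromosome from 22622205 to 22693874, encodes the decarboxylase found mostly at nerve terminals. Its levels were 117, 93.8 and 107 CPM in A2, A4 and A6, and 164, 198, 119 and 181 CPM in B1, B7, B8 and B9. Every cKO mouse was above every control, though B8 exceeded A2 only narrowly. The means were 106 ± 11.6 CPM (SD, n = 3) and 166 ± 34.1 CPM (SD, n = 4). The log2 fold change of *Gad2* was 0.65 ± 0.18 (SE, edgeR adjusted p = 0.138), with an adjusted p of 0.0361 by DESeq2. Without B8 it was 0.77 ± 0.12 (SE, edgeR adjusted p = 0.000273). The corrected value was 0.29, or 0.34 without B8, and among P4 mice alone it was 0.34 (edgeR adjusted p = 0.989).

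Within each library the ratio of *Gad2* to *Gad1* per kb was 0.572, 0.431 and 0.478 for A2, A4 and A6. For B1, B7, B8 and B9 it was 0.680, 0.718, 0.585 and 0.738. All 4 cKO values, B8 among them, were above the controls. The ratio was looked at after the values of both genes were seen, so it is a description with no test. *Abat*, which encodes the GABA transaminase that breaks GABA down, was at 173 to 201 CPM in the controls and 182 to 252 CPM in cKO mice, a log2 fold change of 0.27 (edgeR adjusted p = 0.219).

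*Slc32a1* encodes the vesicular transporter of both GABA and glycine and lies on chromosome 2 from 158610767 to 158615748. It was at 98.0, 113 and 92.5 CPM in A2, A4 and A6, and at 82.1, 58.9, 102 and 47.1 CPM in B1, B7, B8 and B9. The P2 mice B7 and B9 were the lowest, B1 lay just below the controls and B8 was among them. The means were 101 ± 10.8 CPM (SD, n = 3) and 72.4 ± 24.4 CPM (SD, n = 4), and the log2 fold change was -0.48 ± 0.24 (SE, edgeR adjusted p = 0.196). Without B8 it was -0.70 ± 0.17 (SE, edgeR adjusted p = 0.00577), but -0.058 in the corrected fit of the same 6 mice (edgeR adjusted p = 0.739). Among P4 mice alone it was -0.049 (edgeR adjusted p = 0.991). An exon of another gene lies over *Slc32a1* on the other strand, and the strand setting of the counting is not given in the sources used here. *Slc6a9*, *Gabra4*, *Gabrb1*, *Gabra5* and *Gphn* also share exon bases with a gene on the other strand.

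None of the 4 plasma membrane transporters passed the test. *Slc6a11*, the GABA transporter GAT3 of astrocytes, was at 287 to 408 CPM in the controls and 336 to 458 CPM in cKO mice. *Slc6a13*, the transporter GAT2 of the meninges and liver, ranged from 13.5 to 45.2 CPM over all 7 libraries, with B7 and A2 lowest. The summed level of 5 meningeal genes was also lowest in A2 and B7, at 127 and 143 CPM, against 227 to 292 CPM in the other 5 libraries, and its part in the *Slc6a13* values was not tested. *Slc6a9*, the glial glycine transporter GLYT1, was at 29.3 to 40.6 CPM and 38.5 to 41.0 CPM. *Slc6a5*, the glycine transporter GLYT2 that marks glycinergic neurons, was low throughout, at 1.07 to 5.89 CPM in the controls and 3.91 to 7.92 CPM in cKO mice. Their edgeR adjusted p-values were 0.292 to 0.677.

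The alpha subunits set much of the pharmacology and placement of GABA-A receptors. Of the 5 listed, *Gabra3* led per kb, with 44.6 ± 2.23% of their sum in the controls (SD, n = 3) and 48.1 ± 2.39% in cKO mice (SD, n = 4). *Gabra5* followed at 35.2 ± 1.05% and 32.6 ± 2.49%, then *Gabra2* at 15.5 ± 1.39% and 14.7 ± 2.86%, and *Gabra4* at 4.66 ± 0.24% and 4.62 ± 0.24%. The order was the same in all 7 libraries and the ranges of each share overlapped between genotypes. In B1 *Gabra2* made up 10.5%, the lowest share of any library. *Gabra6*, the subunit of cerebellar granule cells, had no count in 4 libraries and 1 to 2 counts in B7, B8 and B9, and was not tested. The log2 fold changes of the other 4 were 0.03 to 0.27 (edgeR adjusted p = 0.272 to 0.871). Without B8 *Gabra3* was called higher (0.38, edgeR adjusted p = 0.0110). It was not called in the corrected fit without B8 (0.16, edgeR adjusted p = 0.171).

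The gamma subunits listed were *Gabrg1* and *Gabrg3*. *Gabrg3* was at 33.1, 32.5 and 32.5 CPM in A2, A4 and A6, a spread of only 0.37 CPM (SD). It was at 48.0, 57.8, 31.0 and 57.2 CPM in B1, B7, B8 and B9, so B8 was just below the controls and the other cKO mice well above them. The log2 fold change was 0.57 ± 0.21 (SE, edgeR adjusted p = 0.138), and 0.73 without B8 (edgeR adjusted p = 0.000325). The corrected value was below 0, at -0.081, and at -0.068 without B8 (edgeR adjusted p = 0.620). It was 0.26 among P4 mice alone. *Gabrg1* was at 57.5 to 71.3 CPM in the controls and 57.5 to 95.7 CPM in cKO mice. *Gabrg1* made up 74.2 ± 2.02% and 71.7 ± 3.51% of the pair per kb in the 2 genotypes.

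**Figure D3:**
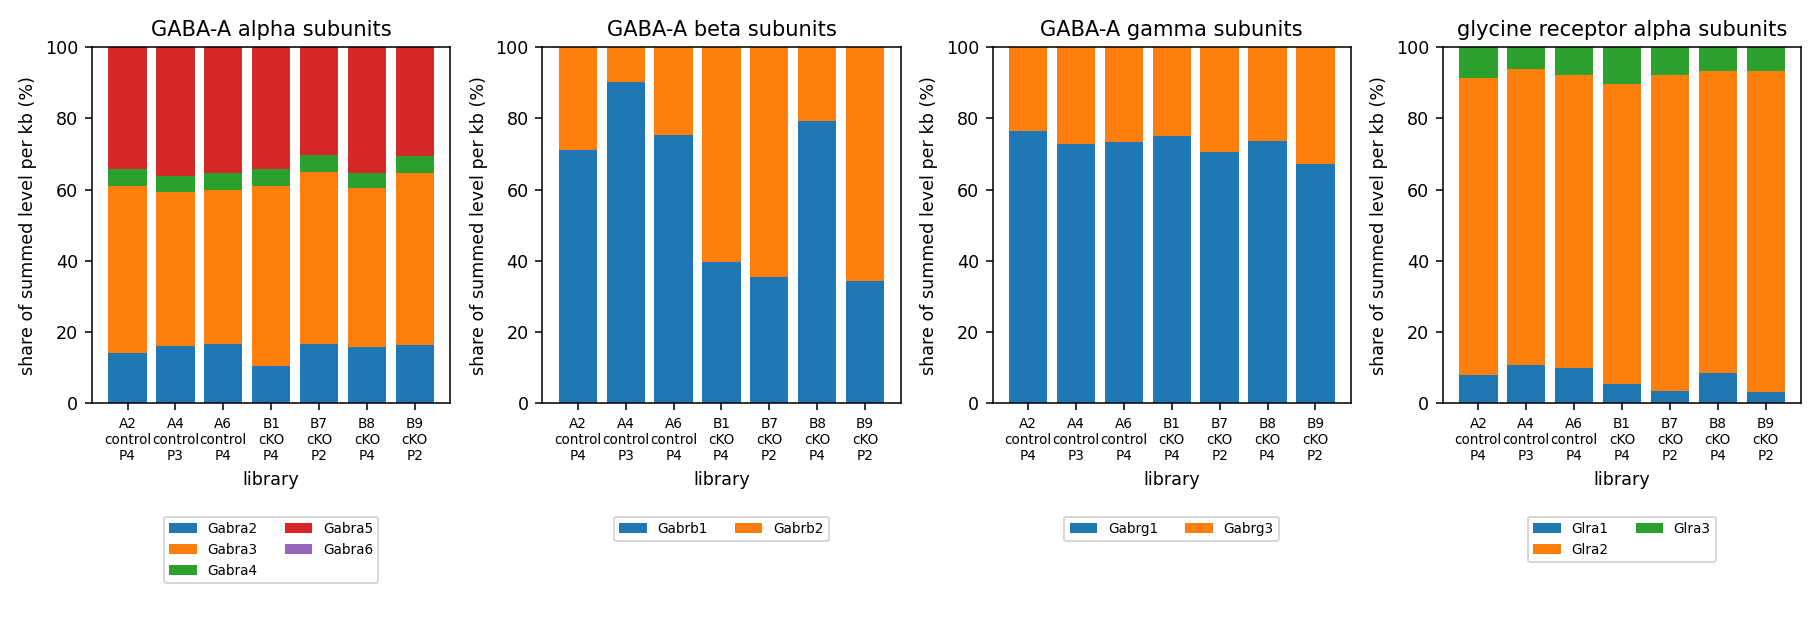
Share of each listed subunit in the summed level per kb of exon of its class (stacked to 100%) in each of the 7 libraries, for the alpha, beta and gamma subunits of the GABA-A receptor and the alpha subunits of the glycine receptor. The orange *Gabrb2* part of the beta panel is 60.5 to 65.8% in B1, B7 and B9 and 29.0% or less elsewhere, while in the gamma panel *Gabrg1* stays between 67.3 and 76.5%.

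The remaining GABA-A subunits were scarce. *Gabrq*, the theta subunit, was at 11.9 to 14.5 CPM in the controls and 11.4 to 20.3 CPM in cKO mice. *Gabre*, the epsilon subunit, was at 0.91 to 1.99 and 1.57 to 2.17 CPM, and *Gabrd*, the delta subunit of extrasynaptic receptors, was under 1 CPM in every library. *Gabrr1*, a rho subunit best known from the retina, was at 2.20, 3.50 and 4.64 CPM in A2, A4 and A6, and at 1.85 to 2.81 CPM in cKO mice. Its log2 fold change was -0.61 ± 0.29 (SE, edgeR adjusted p = 0.183). *Gabrr2* was at 0.06 to 0.55 CPM and was not tested.

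Summed per kb over all listed GABA-A subunits, the level was 112 to 122 in the controls. For B1, B7, B8 and B9 it was 149, 173, 107 and 149, so B8 was the lowest of the 7 libraries and the other cKO mice the highest. *Gabrb2* made up 1.83 ± 0.94% of this sum in the controls (SD, n = 3) and 8.88 ± 4.77% in cKO mice (SD, n = 4).

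The GABA-B receptor is a pair of unlike subunits, of which GABBR1 binds GABA and GABBR2 couples to the G protein. *Gabbr1* was the most abundant gene of the group per kb in the controls, at 107 ± 4.52 CPM per kb (SD, n = 3), and at 109 ± 4.97 CPM per kb in cKO mice (SD, n = 4). Its log2 fold change was 0.02 ± 0.11 (SE, edgeR adjusted p = 0.921). *Gabbr2* was at 281, 244 and 259.6 CPM in A2, A4 and A6, and at 351, 374, 252 and 344 CPM in B1, B7, B8 and B9. B8 lay among the controls, and the log2 fold change was 0.34 ± 0.15 (SE, edgeR adjusted p = 0.169), or 0.44 without B8 (edgeR adjusted p = 0.00331).

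Of the postsynaptic organisers, *Gphn* encodes gephyrin, the scaffold that holds glycine and GABA-A receptors in place. It was at 94.6 to 101 CPM in the controls and 88.0 to 135 CPM in cKO mice, a log2 fold change of 0.24 (edgeR adjusted p = 0.307). *Nlgn2* encodes neuroligin 2, the adhesion molecule of inhibitory synapses. It was at 352 to 369 CPM and 339 to 391 CPM, with a log2 fold change of 0.00 (edgeR adjusted p = 0.987).

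*Slc12a5* lies on chromosome 2 from 164960802 to 164999731. It was at 444, 414 and 419 CPM in A2, A4 and A6, and at 544, 457, 410.3 and 377 CPM in B1, B7, B8 and B9. B1 was the highest and B9 the lowest of the 7, so the cKO mice surrounded the controls. The means were 426 ± 16.3 CPM (SD, n = 3) and 447 ± 72.7 CPM (SD, n = 4), with a log2 fold change of 0.07 ± 0.14 (SE, edgeR adjusted p = 0.751).

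The controls A2, A4 and A6 had 37.0, 31.3 and 34.0 CPM of *Slc12a2*. The cKO mice B1, B7, B8 and B9 had 58.1, 69.8, 32.2 and 67.5 CPM. Again B8 was inside the control range and the other cKO mice were above it. The means were 34.1 ± 2.85 CPM (SD, n = 3) and 56.9 ± 17.2 CPM (SD, n = 4). The log2 fold change of *Slc12a2* was 0.74 ± 0.25 (SE, edgeR adjusted p = 0.138), with an adjusted p of 0.0495 by DESeq2, and 0.93 ± 0.12 without B8 (SE, edgeR adjusted p = 0.000118). The corrected value was 0.11, or 0.18 without B8, where the gene was not called (edgeR adjusted p = 0.124), and among P4 mice alone it was 0.35. *Slc12a2* is expressed in glia and vessels as well as neurons.

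The balance of the cotransporters was taken as the ratio of their levels per kb within each library. It was 17.6, 19.4 and 18.1 for A2, A4 and A6, and 13.7, 9.61, 18.7 and 8.19 for B1, B7, B8 and B9. *Slc12a5* thus exceeded *Slc12a2* in every library, and the ratio was lowest in the P2 mice B7 and B9, lower than the controls in B1 and among the controls in B8. The mean log2 ratio was 4.20 ± 0.07 (SD, n = 3) in the controls and 3.57 ± 0.53 (SD, n = 4) in cKO mice. The difference of -0.62 gave a two-sided exact permutation p of 0.171 over the 35 divisions of 7 mice into 3 and 4, a design whose smallest two-sided p is 0.0571. The difference was -0.16 among P4 mice alone, -1.05 for the P2 cKO mice against all controls, and -0.84 without B8, where the exact permutation p was 0.1, the smallest that 3 against 3 can give. With age as a covariate it was -0.39, and in the corrected fit it was -0.09. Relative to its mean, *Slc12a2* varied more between the cKO mice than *Slc12a5* did.

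**Figure D4:**
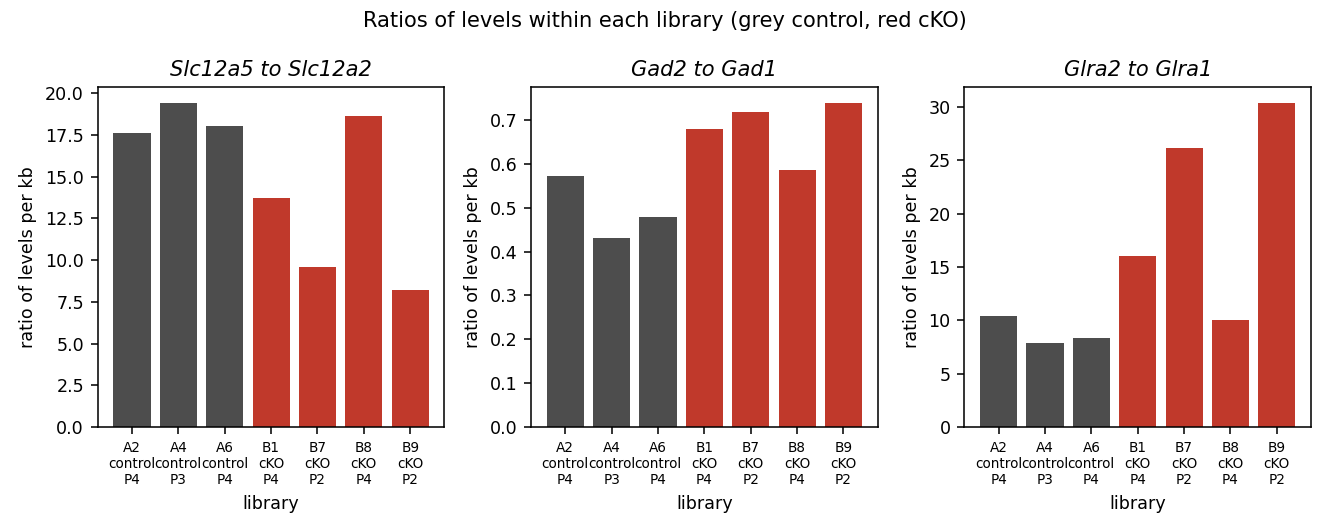
Ratio of levels per kb of exon within each library (grey, the 3 controls; red, the 4 cKO mice) for *Slc12a5* to *Slc12a2*, *Gad2* to *Gad1* and *Glra2* to *Glra1*, with bars from 0. B8 stands at the control level in the first and last panels, and in the *Gad2* to *Gad1* panel all red bars exceed the grey ones.

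Glycine receptors are built from alpha subunits and the beta subunit GLRB, and *Glra2* is the alpha subunit of the immature brain while *Glra1* prevails in adults. *Glra1* was scarce, at 7.43, 8.49 and 7.85 CPM in A2, A4 and A6, and at 5.27, 3.74, 6.90 and 2.82 CPM in B1, B7, B8 and B9. All 4 cKO mice were below all 3 controls, B8 narrowly and B9 the furthest. The means were 7.92 ± 0.54 CPM (SD, n = 3) and 4.68 ± 1.79 CPM (SD, n = 4). The log2 fold change of *Glra1* was -0.77 ± 0.29 (SE, edgeR adjusted p = 0.140), and -1.03 ± 0.23 without B8 (SE, edgeR adjusted p = 0.00341). Between P2 cKO mice and controls it was -1.29, and among P4 mice alone -0.32. An exon of another gene overlaps *Glra1* on the other strand.

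*Glra2* was at 85.1 to 101 CPM in the controls, and B1, B7, B8 and B9 had 110.2, 128, 90.1 and 112 CPM. Its log2 fold change was 0.27 ± 0.15 (SE, edgeR adjusted p = 0.231). *Glra2* made up 83.1 ± 0.57% of the glycine receptor alpha subunits per kb in the controls (SD, n = 3) and 87.1 ± 2.96% in cKO mice (SD, n = 4), with every cKO mouse (84.3 to 90.4%) above every control (82.4 to 83.4%). *Glra1* made up 9.49 ± 1.34% and 5.03 ± 2.50%. Without division by exon length the *Glra2* shares averaged 74.2% in the controls and 76.5% in cKO mice, and the groups overlapped. The ratio of *Glra2* to *Glra1* per kb was 10.4, 7.90 and 8.31 in A2, A4 and A6, and 16.0, 26.2, 10.01 and 30.3 in B1, B7, B8 and B9, highest in the P2 mice. Neither this ratio nor these shares were tested. *Glra3* was at 18.4 to 30.6 CPM and 20.7 to 39.7 CPM, and *Glrb* at 96.0 to 108 CPM and 76.2 to 130 CPM, with log2 fold changes of 0.29 and 0.04 (edgeR adjusted p = 0.443 and 0.905).

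Per kb, the order of the levels in the controls ran from *Gabbr1* (107 CPM per kb) through *Slc6a11* (66.4), *Nlgn2* (62.3), *Slc12a5* (57.2) and *Gabra3* (41.1) to *Gabrd* (0.20) and *Gabrr2* (0.14), with *Gabra6* at 0. For 19 of the 31 pairs of neighbours in this order the ranges of the 3 controls overlapped, so their places are not told apart. *Gabrb2* stood at 2.18 ± 1.18 CPM per kb in the controls (SD, n = 3), in the order between *Gabrq* and *Gabrr1*, and at 13.8 ± 8.27 in cKO mice (SD, n = 4), where it was 14.5, 21.1 and 17.5 in B1, B7 and B9 and 2.03 in B8.

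Fold changes varied with the length and base composition of the genes. Over 15513 protein-coding genes the log2 fold change had a Spearman correlation of 0.58 with exon length and -0.43 with GC content, and over the 30 inhibitory genes the values were 0.57 and -0.41. These are descriptions across genes that share the same 7 libraries. All 11 of the 30 genes with at least 7 kb of exon had a log2 fold change above 0, as did 9 of 10 genes of 4 to 7 kb and 4 of 9 shorter ones. Of the protein-coding genes in the same ranges, 3030 of 3593, 2953 of 4997 and 1815 of 6923 were above 0. *Slc12a2* (10.9 kb) and *Gabrg3* (11.9 kb) are long, and *Slc32a1* (2.8 kb) and *Glra1* (2.41 kb) are short.

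The corrected fit was therefore set beside the uncorrected one. *Gabrb2* kept a log2 fold change of 2.21 and *Glra1* of -0.57, while *Gad2* was at 0.29, *Slc12a2* at 0.11, *Gabrg3* at -0.08 and *Slc32a1* at -0.05. The correction was fitted on all genes, so it takes out any change that follows length or GC content, whatever its source. With the correction and without B8, 9 of the 30 genes passed the edgeR test, where 34.0% of all genes did. *Gabrb2* (log2 fold change 2.57, adjusted p = 0.000176), *Gad2* (0.34, adjusted p = 0.0109), *Slc6a9* (0.36) and *Gabbr2* (0.37) were higher. *Glra1* (-0.72, adjusted p = 0.0256), *Gad1* (-0.30), *Gabra2* (-0.46), *Gabrb1* (-0.53) and *Gabbr1* (-0.30) were lower.

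**Figure D5:**
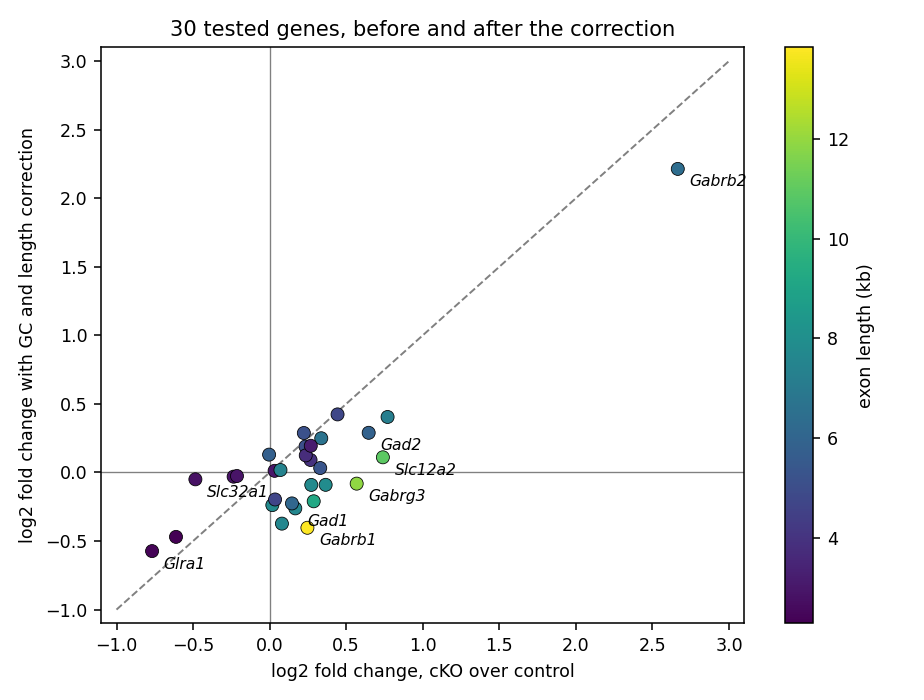
Log2 fold change of the 30 tested genes (cKO over control, edgeR) without (horizontal axis) and with (vertical axis) the GC and length correction, coloured by exon length in kb, with the dashed line marking equal values. *Gabrb2* stays far from the rest at 2.67 and 2.21, and the long genes *Gabrb1*, *Gabrg3* and *Slc12a2* drop towards or below 0.

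How many of the 30 genes were called differed between fits, and edgeR alone went from 0 to 13 when B8 was left out. The limma-voom fit with sample quality weights, which gave B8 a weight of 0.17, called 14 (48.5% of all genes). DESeq2 without B8 also called 14 (39.9% of the genes with an adjusted p). Controls against the P2 cKO mice, which leaves out B8 and B1, gave 14 (46.9% of all genes), 12 higher and 2 lower. P4 mice alone and the fit with age as a covariate gave 0 each by edgeR, with 0 and 5 genes at an unadjusted p of 0.05, against 1.18% and 18.2% of all genes. *Gad2*, *Gabrb2* and *Slc12a2* were among those called by DESeq2, by limma-voom, and by edgeR and DESeq2 without B8.

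A scale set by the 8 pan-neuronal genes in place of all genes moved the median log2 fold change of all genes to 0.17, with 61.5% above 0. On that scale the median of the 30 inhibitory genes was 0.40, with 25 above 0, and *Slc32a1* was at -0.32, *Gad1* at 0.33, *Gad2* at 0.81 and *Gabrb2* at 2.82.

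The wider pathway was read from a list of 66 other genes of GABA and glycine transmission, chloride transport and inhibitory synapses, of which 65 were found and 62 tested. By edgeR 0 of the 62 were called, 26 had an unadjusted p under 0.05 (19 higher and 7 lower, against 30.4% of all genes), and 38 had a log2 fold change above 0, with a median of 0.12. With the GC and length correction 26 of the 62 were above 0, with a median of -0.03, against 45.7% and -0.044 for all genes. DESeq2 called 7, of which 6 were higher and 1 lower (10.4% of all genes), and without B8 edgeR called 37, of which 25 were higher and 12 lower (46.7% of all genes). In the corrected fit on 7 mice, 6 higher and 12 lower had an unadjusted p under 0.05, against 5666 of all 21817 genes. In the corrected fit without B8, 23 were called, of which 10 were higher and 13 lower (34.0% of all genes). The highest of those above 5 CPM were *Macf1* (1.12), a cytoskeletal linker, *Wnk3* (1.06), a kinase that regulates the chloride cotransporters, and *Slc4a8* (0.88), a bicarbonate exchanger. The lowest were *Gabarap* (-0.79), the GABA-A receptor-associated protein that also serves autophagy, *Slc12a9* (-0.61) and *Gcsh* (-0.58), a subunit of the glycine cleavage system. Their edgeR adjusted p-values were 0.138 to 0.140, and 7.08e-05 to 0.000862 without B8. *Macf1* has 31.4 kb of exon and *Gabarap* 1.84 kb, and with the correction their log2 fold changes were 0.31 and -0.59. The corrected values of *Wnk3*, *Slc4a8*, *Slc12a9* and *Gcsh* were 0.41, 0.32, -0.47 and -0.42.

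For comparison, 28 tested genes of glutamate receptors and vesicular glutamate transporters had a median log2 fold change of 0.20, with 18 above 0. With the correction, 5 of these 28 were above 0 with a median of -0.22, where the inhibitory genes had a median of -0.01 and all genes -0.044. By edgeR 0 of the 28 were called, with 12 at an unadjusted p under 0.05 (30.4% of all genes), and 19 were called without B8, 13 higher and 6 lower (46.7% of all genes). In the corrected fit without B8, 14 were called, 2 higher and 12 lower (34.0% of all genes).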

How the data were processed

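Per the labels and the study's methods, dorsal midbrain RNA of 7 mice was enriched for poly(A), made into strand-specific libraries and sequenced in pairs. After trimming, the authors used TopHat2 with Bowtie2 for alignment to the mouse build GRCm38.p5 and HTSeq to count reads per GENCODE gene. The deposited values are raw read counts per gene and library. Unassigned reads (31.0 to 38.2% of each file) were left out of library sizes. The counts of replicates differed by more than sampling noise (chi-square per degree of freedom of 8.4 or more).

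GENCODE vM21 gave the symbols, exon lengths and GC content (52489 of 52636 genes matched). Genes were kept by filterByExpr (minimum count 10, minimum total 15), scaled by TMM and tested with the edgeR 4.0.16 quasi-likelihood test on all 7 libraries with genotype alone, adjusted by Benjamini-Hochberg over all genes. CPM are counts scaled to the TMM-adjusted library total. Levels are divided by exon length only to compare genes. DESeq2 1.42.0 and limma 3.58.1 (voom with sample quality weights), RLE scaling, other filters, age as a covariate, age subsets, leaving out each mouse, a neuronal scale and a GC and length correction (a smooth of each fitted per library with mgcv 1.9.3) were the alternatives. Fits without B8 by DESeq2 or with the correction, and the correction of the cotransporter ratio, were added after seeing the data. The scripts were tested on simulated data. The genes and lists were chosen with earlier results of these data known. All 32 genes are named. Full values are given for *Gad1*, *Gad2*, *Slc32a1*, *Slc12a5*, *Slc12a2* and genes whose groups did not overlap. *Gabrb2*, *Gabrg3* and *Gabbr2* were added after their values were seen. Other pathway genes are the 3 highest and 3 lowest at 5 CPM or more.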

Additional observations from a re-analysis of the deposited data

Results flagged for a closer look

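In 3 of 44 values examined over the 4 cKO mice, 1 library stood far from the other 3, its gap to the nearest being above Dixon's 95% limit as a share of the range. Chance gives about 1 in 20, or 2.2 of 44. The log2 CPM of *Gabrb2* in cKO mice had a gap of 0.842 of the range, with B8 the low library. The log2 ratio of *Gabrb2* to *Gabrb1* had a gap of 0.885, again with B8 low, at 0.263 against 1.53 to 1.92 in B1, B7 and B9. The share of *Gabra2* among the alpha subunits had a gap of 0.872, with B1 low at 10.5% against 15.7 to 16.5% in the other 3.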

How the results depend on the processing

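The count of called genes moved with the tool, with B8, and with the set of mice compared. Against 0 of the listed genes and 0 of the other pathway genes by edgeR on 7 mice, DESeq2 called 3 and 7, limma-voom with quality weights 14 and 39, controls against P2 cKO, without B1 and B8, 14 and 40, DESeq2 without B8 14 and 38, and the GC and length correction without B8 9 and 23. Leaving out 1 mouse at a time gave 0 to 13 and 0 to 37, all calls coming from leaving out B8. RLE scaling, both other filters, the age covariate, both P4 sets, the neuronal scale and the correction on 7 mice called 0. The median log2 fold change of the listed genes was 0.24, and -0.0070 with the correction and -0.0040 with it and without B8. Under the other alternatives it was above 0, from 0.15 in P4 mice only and without A4 to 0.40 on the neuronal scale. The cotransporter ratio kept its direction in all its alternatives, as did the shares of *Gabra3*, *Gabrb2* and *Glra1*.

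Of 599 values of single genes under the alternatives, 545 kept their direction and 54, in 15 genes, did not. With the correction on 7 mice, and then without B8, the log2 fold changes that turned were *Gad1* -0.26 and -0.30, *Abat* -0.091 and -0.090, *Gabra2* -0.37 and -0.46, *Gabra4* -0.23 and -0.21, *Gabrb1* -0.40 and -0.53, *Gabrg1* -0.090 and -0.087, *Gabrg3* -0.081 and -0.068, *Gabbr1* -0.24 and -0.30, *Nlgn2* 0.13 and 0.19, *Glra3* -0.21 and -0.22, and *Glrb* -0.20 and -0.24. Of these, *Gad1*, *Gabra2*, *Gabrb1* and *Gabbr1* were called lower without B8. For P4 mice only, and for controls against P4 cKO, *Slc6a13* was 0.15 and 0.043, *Gabra2* -0.26 and -0.26, *Gabra5* -0.017 and -0.0050, *Gabrd* 0.35 and 0.37, and *Nlgn2* 0.061 and 0.082, and *Gabra4* was -0.068 for P4 mice only. With the age covariate *Gabra2* was -0.14, *Gabrd* 0.054 and *Nlgn2* 0.047. Against P2 cKO *Gabbr1* was -0.037, *Slc12a5* -0.049 and *Glrb* -0.12. *Nlgn2* was 0.022 with at least 10 counts in every library and 0.16 on the neuronal scale. Leaving out 1 mouse at a time gave -0.52 to 0.021 for *Slc6a13*, -0.062 to 0.21 for *Gabra2*, -0.0026 to 0.086 for *Gabra5*, -0.59 to 0.10 for *Gabrd*, -0.018 to 0.057 for *Gabbr1*, -0.047 to 0.034 for *Nlgn2*, -0.040 to 0.15 for *Slc12a5* and -0.10 to 0.16 for *Glrb*. The cause was not tested. No paired analysis was possible because controls and cKO mice share no replicate numbers.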
